A study of Mus musculus with 10 samples.

Results

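Hsd3b5, Mup3 and Car3 are hepatocyte genes whose expression in liver depends on growth hormone, and they were followed here as 3 genes out of 8251 named genes measured in mouse liver. They were taken as every probe set that the platform annotation assigns to 1 of these genes alone, which gave 1 probe set for Hsd3b5 (94795_at), 1 for Car3 (160375_at) and 2 for Mup3. The brighter Mup3 probe set over the 10 arrays, 101910_f_at with a mean log2 signal of 13.11, represented the gene, and the dimmer, 101909_f_at with 12.94, served as a check. The probe sets were chosen by their mean signal. The genes were selected on earlier differences of these same transgenic livers. Their values, ranks and calls in every contrast that uses a transgenic pool are therefore descriptions, since the selection favoured such calls.

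The study asked which genes respond to sterol regulatory element-binding proteins (SREBPs), the transcription factors of lipid synthesis, and measured liver RNA of male mice on Affymetrix MG_U74Av2 arrays. TgSREBP-1a and TgSREBP-2 mice carried human transgenes for the active nuclear form of SREBP-1a or SREBP-2, and were compared with wild type littermates. In the published lines both transgenes are driven by the promoter of phosphoenolpyruvate carboxykinase, a gene of liver and kidney that this diet induces. Mice of these 3 groups were 12 to 16 weeks old and ate a diet high in protein and low in carbohydrate for 2 weeks, which was used to raise the transgene proteins. The other 2 groups were Scap-/- mice with MX1-Cre, which lacked in liver the SREBP escort protein SCAP, and wild type mice, aged 10 to 12 weeks and fed Teklad chow. Both received 4 injections of polyinosinic-polycytidylic acid, which induces the interferon-responsive Mx1 promoter that drives Cre, and their livers were taken 14 days after the last one. Each group was 1 pool of RNA from 5 mice, hybridised to 2 arrays. Every n = 2 below therefore counts arrays of 1 pool, the tests compare pools and not genotypes, and no spread between mice enters them.

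Growth hormone reaches hepatocytes through its receptor GHR, which activates the kinase JAK2 and the transcription factor STAT5B. In rodents the pituitary releases it in pulses in males and more evenly in females, and this pattern sets which liver genes are higher in either sex. Hsd3b5 encodes a mouse 3-ketosteroid reductase of the 3-beta-hydroxysteroid dehydrogenase family that is expressed in male liver. Mup3 encodes a major urinary protein, a lipocalin that liver secretes and that carries small volatile ligands in urine. Car3 encodes carbonic anhydrase III, an abundant cytosolic protein of liver, adipose tissue and skeletal muscle that is male-biased in rat liver.

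The start regions of Hsd3b5 and Mup3, 2 of the 3 genes, were read from RefSeq (GRCm38.p6). Car3, which was lower in TgSREBP-1a livers as well, had no start region available and is left out. Each spans 250 bases before to 50 bases after the annotated start and is given 5′ to 3′ on the minus strand, chr3:98645485-98645784 for Hsd3b5 and chr4:62087268-62087567 for Mup3. Capitals mark the letters of any of 4 searched motifs.
Hsd3b5: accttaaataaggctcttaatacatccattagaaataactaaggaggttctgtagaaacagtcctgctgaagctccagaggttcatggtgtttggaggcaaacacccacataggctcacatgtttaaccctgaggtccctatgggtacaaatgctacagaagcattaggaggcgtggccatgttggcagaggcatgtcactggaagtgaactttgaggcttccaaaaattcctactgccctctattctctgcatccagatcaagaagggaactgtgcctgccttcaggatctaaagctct
Mup3: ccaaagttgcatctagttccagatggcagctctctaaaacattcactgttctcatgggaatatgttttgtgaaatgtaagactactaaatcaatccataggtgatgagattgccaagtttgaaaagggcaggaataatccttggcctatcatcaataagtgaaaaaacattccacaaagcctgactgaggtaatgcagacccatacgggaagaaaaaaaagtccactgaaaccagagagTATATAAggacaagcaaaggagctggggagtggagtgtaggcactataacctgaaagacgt
The motifs were searched on both strands as a STAT5 site TTCNNNGAA, a sterol regulatory element TCACNCCAC, an E-box CACGTG and a TATA element TATANAA. Of 32851 windows of this length in the RefSeq table, 8.3% held the STAT5 letters, 1.24% the sterol element, 7.15% the E-box and 11.3% the TATA letters. Mup3 had 1 match, TATATAA on its own strand, whose first base lay at position -11 from the annotated start. The Hsd3b5 window had 0 matches, which says only that these letters are not in these 300 bases.

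All 3 genes were lowest in TgSREBP-1a livers, but they differed in the other groups. Hsd3b5 was graded over the pools, lower in TgSREBP-2 than in wild type on the same diet and lower in that wild type pool than in chow-fed wild type. Mup3 and Car3 were far below every other pool in TgSREBP-1a, where Mup3 lay at least 2.17 and Car3 at least 2.04 log2 units under the next lowest array. Calls needed at least a 1.5-fold difference and a limma adjusted p below 0.05, and ± after a log2 difference gives the standard error of that fit.

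**Figure D1:**
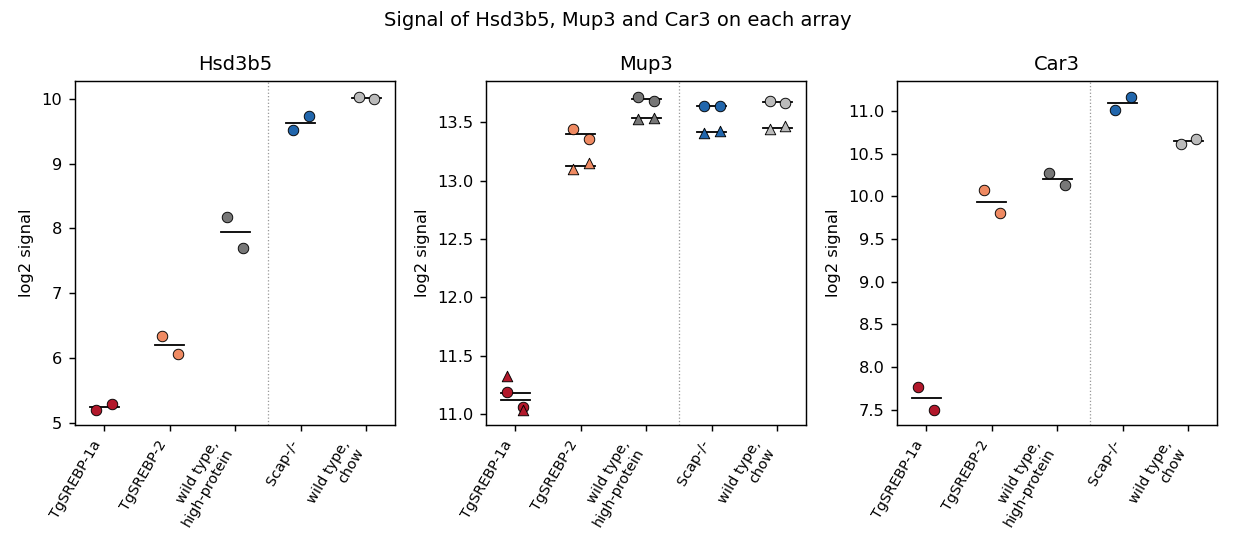
Log2 signal (vertical axis) on each of the 10 arrays for Hsd3b5, Mup3 and Car3, by group, with circles for the representative probe set, triangles for the dimmer Mup3 probe set and bars for the mean of 2 arrays. The dotted line parts the high-protein groups from the chow groups, and the TgSREBP-1a arrays are the lowest in every panel.

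Hsd3b5 had log2 signals of 5.21 and 5.30 on the TgSREBP-1a arrays and 6.34 and 6.06 on the TgSREBP-2 arrays, against 8.18 and 7.70 in high-protein wild type. It had 9.52 and 9.73 in Scap-/- livers, against 10.03 and 9.99 in chow-fed wild type. No 2 groups overlapped, which shows array spread only, and the share of all genes without overlap was not counted. The order from lowest to highest was TgSREBP-1a, TgSREBP-2, high-protein wild type, Scap-/- and chow-fed wild type. The TgSREBP-1a values lay below the median of their own arrays (6.38 and 6.37), where detection calls were not used here, so a level near the array's background cannot be told apart from a low level.

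Hsd3b5 fell 6.43-fold in TgSREBP-1a (log2 difference -2.69 ± 0.15, n = 2 arrays each). All 3 genes met the call there, beside 7.37% of all genes called, 2.59% lower and 4.78% higher. In TgSREBP-2 Hsd3b5 fell 3.35-fold (-1.74 ± 0.15), rank 2 from the lowest of 8251 differences. It was 1 of the 3 genes that met the call, beside 2.57% of all genes called, 0.388% lower and 2.18% higher. Set directly against TgSREBP-2, the TgSREBP-1a pool was lower by 0.94 ± 0.15 log2 (log2 difference -0.94), or 1.92-fold. All 3 genes met the call in that contrast, beside 5.19% of all genes called, 2.95% lower and 2.24% higher. As the genes were selected on these livers, their calls and rank in these transgenic contrasts do not test them against the shares of all genes.

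In Scap-/- livers the Hsd3b5 difference was -0.39 ± 0.15, with a 95% interval of -0.72 to -0.05 and an adjusted p = 0.37, and was not called. In this comparison 0 of the 3 genes were called in limma, beside 1.66% of all genes called, 0.921% lower and 0.739% higher. At an unadjusted limma p under 0.05, 2 of the 3 (Hsd3b5 and Car3) passed. The share of all genes passing that looser threshold was not counted. Between the wild type pools Hsd3b5 fell 4.2-fold in the high-protein set (-2.07 ± 0.15, adjusted p = 1.43e-05). It was 1 of the 3 genes called there, beside 5.62% of all genes called, 4.34% lower and 1.28% higher. The wild type pools differed in diet, age range and injections at once, and these cannot be told apart.

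Mup3 had log2 signals of 11.19 and 11.06 on the TgSREBP-1a arrays and 13.44 and 13.36 on the TgSREBP-2 arrays, against 13.72 and 13.68 in high-protein wild type. In Scap-/- livers it had 13.64 on each array, against 13.68 and 13.67 in its chow-fed wild type. The TgSREBP-1a arrays stood apart, and the other 8 lay within a narrow band in which the 2 wild type pools overlapped. These values are close to the highest signal on any array, 14.03, and whether the upper end of the scale narrows differences there was not tested.

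Mup3 fell 5.95-fold in TgSREBP-1a (-2.57 ± 0.08, n = 2 arrays each). The TgSREBP-2 difference was -0.30 ± 0.08, with a 95% interval of -0.47 to -0.12, and did not meet the call. The direct comparison of the transgenic pools gave -2.28 ± 0.08, a 4.84-fold lower signal in TgSREBP-1a. In Scap-/- the difference was -0.03 ± 0.08 with an interval of -0.21 to 0.14, and in the high-protein wild type pool it was 0.02 ± 0.08 with an interval of -0.15 to 0.20. Neither passed the test, with adjusted p = 0.993 and 0.855.

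The dimmer Mup3 probe set gave the same order of pools. It had 11.33 and 11.04 on the TgSREBP-1a arrays and 13.10 and 13.15 on the TgSREBP-2 arrays, against 13.53 and 13.54 in high-protein wild type. In a fit over all 10833 probe sets it was lower by 2.35 ± 0.10 in TgSREBP-1a (log2 difference -2.35) and stood at -0.41 ± 0.10 in TgSREBP-2, short of 1.5-fold. Both probe sets carry the _f suffix that Affymetrix gave to probes shared within a gene family. The signal may therefore come from several Mup genes, and its assignment to Mup3 alone is uncertain.

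Car3 had log2 signals of 7.76 and 7.50 on the TgSREBP-1a arrays and 10.07 and 9.80 on the TgSREBP-2 arrays, against 10.27 and 10.13 in high-protein wild type. It had 11.01 and 11.17 in Scap-/- livers, against 10.62 and 10.67 in chow-fed wild type. No 2 groups overlapped, which again shows array spread only, with no share of all genes counted. TgSREBP-2 and its wild type were parted by only 0.06 log2. Scap-/- held the highest values, unlike for Hsd3b5 and Mup3.

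Car3 fell 5.93-fold in TgSREBP-1a (-2.57 ± 0.12, n = 2 arrays each), and it was 4.94-fold lower there than in TgSREBP-2 (-2.30 ± 0.12). In TgSREBP-2 against wild type it stood at -0.27 ± 0.12, and in Scap-/- at 0.45 ± 0.12 (adjusted p = 0.0981, 95% interval 0.19 to 0.71). In the high-protein wild type pool it was at -0.44 ± 0.12, with an adjusted p = 0.0248 but only a 1.36-fold difference. None of these last 3 differences was called.

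**Figure D2:**
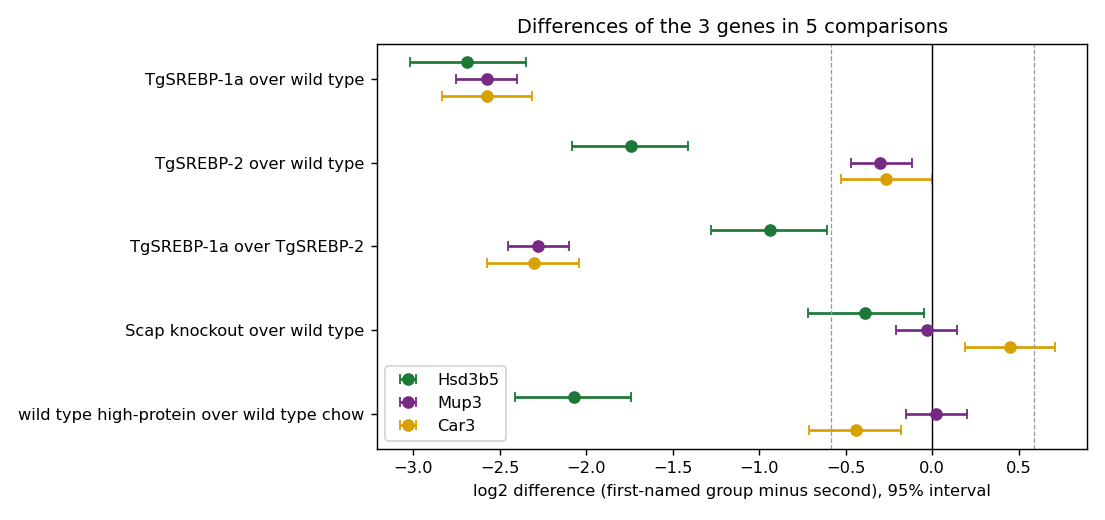
Log2 difference (horizontal axis, first-named group minus second) with its 95% interval for Hsd3b5, Mup3 and Car3 in 5 comparisons, where dashed lines mark 1.5-fold. All 3 genes lie near -2.6 in TgSREBP-1a over wild type, and in TgSREBP-2 over wild type Hsd3b5 (-1.74) lies apart from Mup3 (-0.30) and Car3 (-0.27).

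The transgenic comparisons with wild type share the same 2 wild type arrays, so the values above are set side by side and not correlated between comparisons. The transgene effect and the knockout effect do not share arrays. The TgSREBP-1a difference minus the Scap-/- difference met the call for all 3 genes, beside 7.42% of all genes called, 2.76% lower and 4.65% higher. It was -2.30 ± 0.21 for Hsd3b5, -2.54 ± 0.11 for Mup3 and -3.02 ± 0.17 for Car3. In bulk RNA, fewer cells that express a gene and less RNA per cell cannot be told apart.

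Family members on the array were read next, since related sequences can share probes. Hsd3b2 is next to Hsd3b5 in the gene cluster on chromosome 3 and encodes another 3-beta-hydroxysteroid dehydrogenase. It had 5.16 and 4.90 on the TgSREBP-1a arrays and 6.71 and 6.44 on the TgSREBP-2 arrays, against 6.89 and 6.83 in high-protein wild type. It had 7.74 and 7.90 in Scap-/-, against 8.65 and 8.91 in chow-fed wild type. The pools stood in the same order as for Hsd3b5, with different steps between them. The Hsd3b2 values in TgSREBP-1a also lay below the medians of their arrays (6.38 and 6.37), with the limit given for Hsd3b5.

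Hsd3b2 fell by 1.83 ± 0.13 in TgSREBP-1a (adjusted p = 4.28e-06), was at -0.28 ± 0.13 in TgSREBP-2 (adjusted p = 0.297) and fell by 0.96 ± 0.13 in Scap-/- (adjusted p = 0.00198). In the high-protein wild type pool it fell by 1.92 ± 0.13 (adjusted p = 9.99e-06). Hsd3b6, also of this cluster and named after its values were seen, fell by 0.67 in TgSREBP-1a (adjusted p = 0.00606). Hsd3b7, which acts in bile acid synthesis, was at -0.41 ± 0.09 there, short of 1.5-fold. How far probes of this family read each other's transcripts was not tested.

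Mup5, another urinary protein gene 2 genes from Mup3 on chromosome 4, had 11.25 and 11.17 on the TgSREBP-1a arrays and 12.55 and 12.61 on the TgSREBP-2 arrays, against 12.83 and 12.91 in wild type. It fell by 1.66 ± 0.08 in TgSREBP-1a (adjusted p = 1.46e-07), and its probe set also has the _f suffix.

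The other carbonic anhydrases did not move as one. Car2, beside Car3 on chromosome 3 and encoding a highly active cytosolic enzyme, rose by 1.05 ± 0.09 in TgSREBP-1a (adjusted p = 1.16e-05). Its log2 signals were 7.0 and 6.97 there, against 5.86 and 6.01 in wild type. Car14, a membrane-bound form, fell by 0.98 ± 0.10 in TgSREBP-1a (adjusted p = 7.55e-05). It also fell in TgSREBP-2 by 0.65 ± 0.10, under 1.5-fold without replicate 2 of TgSREBP-2 (-0.55), and rose in Scap-/- by 0.59 ± 0.10, a call lost without Scap-/- replicate 2 or either array of its wild type (0.53, 0.55 and 0.63, limma adjusted p = 0.127, 0.127 and 0.0755). Over 15 measured relatives of the 3 genes, with the lipocalin Lcn2 included, 2 rose and 4 fell in TgSREBP-1a, with a median of -0.33 beside -0.03 over all genes.

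Other genes known as male-biased or female-biased in mouse liver were taken from lists that hold none of the 3 genes but were drawn up with earlier results of these livers known. Mup5 is counted both in the male-biased list and among the relatives above, and its _f probe set may read other Mup genes. Of 32 listed male-biased genes 12 were measured. In TgSREBP-1a 9 of the 12 fell and 1 rose, with a median of -1.36 against -0.03 over all genes. In TgSREBP-2 3 fell and 1 rose (median -0.35 against -0.02), and in Scap-/- 1 fell and 0 rose (median -0.02 against 0.00). Over all genes 2.59% were called lower and 4.78% higher in TgSREBP-1a, and 0.388% and 2.18% in TgSREBP-2. In Scap-/- these shares were 0.921% and 0.739%. The same shares are the background for the counts of called genes in every gene list and marker list here. They are no background for counts at an unadjusted p, where the share of all genes was not counted.

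Cyp7b1, an oxysterol hydroxylase, had 5.98 and 5.95 on the TgSREBP-1a arrays, against 10.42 and 10.24 in wild type. It fell by 4.36 ± 0.11 (adjusted p = 2.58e-09), and by 4.67 ± 0.16 on its dimmer probe set. Its TgSREBP-1a signals lay below the array medians (6.38 and 6.37), with the limit given for Hsd3b5. The complement component C9 fell by 3.41 ± 0.09, with 7.66 and 7.72 against 11.11 and 11.09. Neither was called in TgSREBP-2, with differences of -0.42 ± 0.11 (adjusted p = 0.0629) and -0.04 ± 0.09 (adjusted p = 0.855). The epidermal growth factor receptor gene Egfr fell by 1.95 ± 0.10 in TgSREBP-1a, and in TgSREBP-2 its representative probe set was at -0.23 ± 0.10 (adjusted p = 0.294) while another of its probe sets fell by 0.66 ± 0.10.

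Gstp1, Serpina12 and Bcl6 fell in both transgenic pools. Gstp1, a glutathione transferase, fell by 1.89 ± 0.08 in TgSREBP-1a and by 1.52 ± 0.08 in TgSREBP-2 (adjusted p = 1.11e-07 and 1.68e-06). Serpina12, the serpin vaspin, fell by 1.82 ± 0.08 and 1.46 ± 0.08. Bcl6, a transcriptional repressor that STAT5 holds down in male mouse liver, fell by 1.06 ± 0.08 and 0.75 ± 0.08, and it was the male-biased gene called in Scap-/- (-0.77 ± 0.08, adjusted p = 0.000447). Bcl6 is also in the list of transcription factors below. In both transgenic pools the signals of Serpina12 and Bcl6 lay below the array medians, with the limit given for Hsd3b5. Selenbp1, a selenium-binding protein, went the other way, higher by 0.95 ± 0.16 in TgSREBP-1a and by 1.13 ± 0.16 in TgSREBP-2.

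Of 33 listed female-biased genes 15 were measured, and 5 rose and 0 fell in TgSREBP-1a (median 0.28 against -0.03 over all genes). In TgSREBP-2 0 rose and 1 fell (median -0.08), and limma called 0 of them in Scap-/- (median 0.07). At an unadjusted p under 0.05, 4 were apart in Scap-/-. Cyp2c39, a cytochrome P450 of the 2C family, had 10.13 and 9.96 in TgSREBP-1a and 7.28 and 7.47 in TgSREBP-2, against 8.05 and 8.01 in wild type. It rose by 2.02 ± 0.09 in TgSREBP-1a and fell by 0.65 ± 0.09 in TgSREBP-2, a fall under 1.5-fold without TgSREBP-2 replicate 1 (-0.56).

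Cyp17a1, the steroid 17-alpha-hydroxylase, rose by 1.88 ± 0.09 in TgSREBP-1a and by only 0.37 ± 0.10 on its dimmer probe set, which was not called. Cyp2b9, a cytochrome P450 of the 2B family, rose by 1.71 ± 0.10, with 7.55 and 7.28 against 5.71 and 5.70. The sulfotransferase Sult2a2 and the cytochrome P450 Cyp3a16 rose by 0.76 ± 0.10 and 0.82 ± 0.11 at low signals. The remaining 10 female-biased genes were not called, so most of the list did not pass the test.

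**Figure D3:**
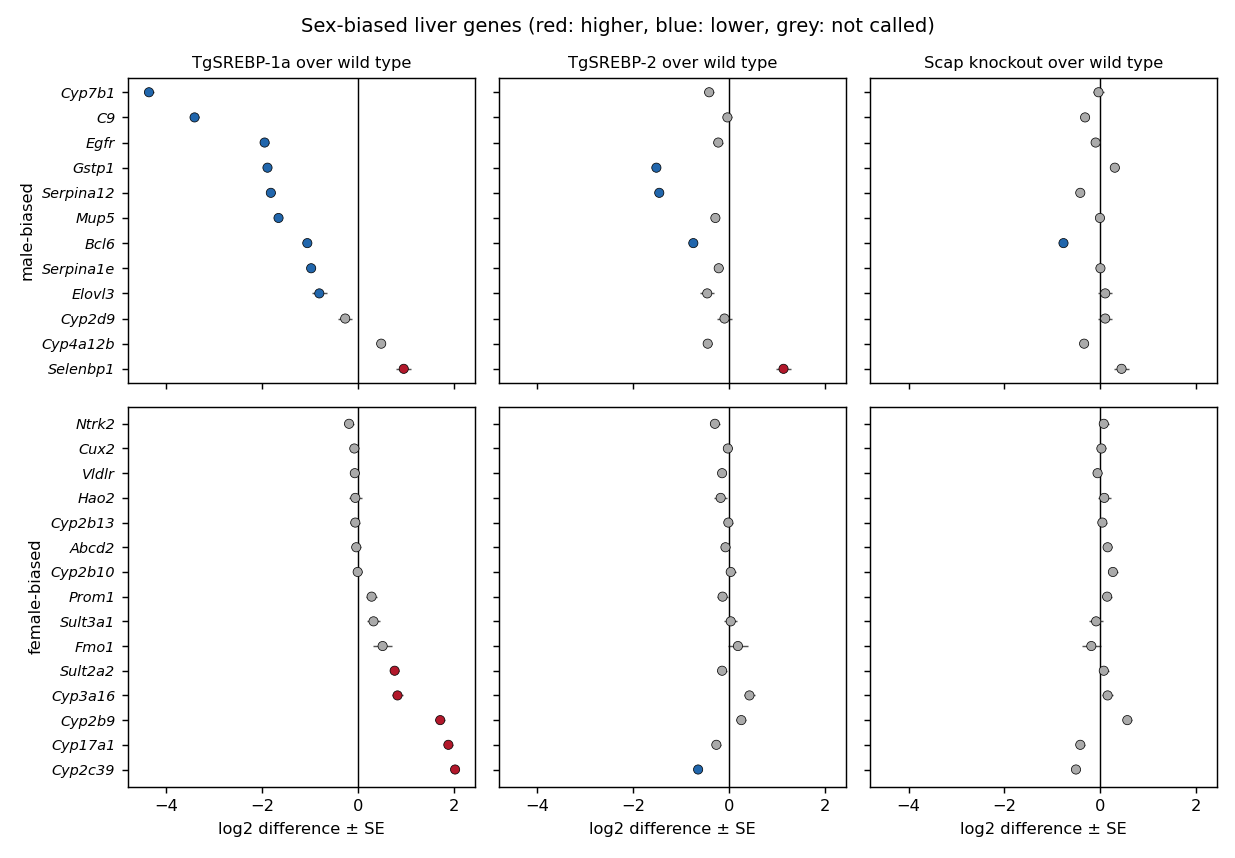
Log2 difference with its standard error (horizontal axis) for the 12 measured male-biased genes (top) and 15 female-biased genes (bottom) in 3 comparisons, with red for called higher, blue for called lower and grey for not called. In TgSREBP-1a 9 male-biased genes are lower and 5 female-biased genes higher.

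On their representative probe sets the gene of the growth hormone receptor and 4 of its pathway genes were called lower in the TgSREBP-1a pool. Other probe sets of Igfals, Igf1 and Igfbp4, given below, were not called. Of 25 listed growth hormone pathway genes 23 were measured, of which 5 fell and 1 rose in TgSREBP-1a (median -0.15 against -0.03 over all genes). In TgSREBP-2 1 fell and 0 rose (median -0.07), and in Scap-/- 1 fell and 0 rose (median -0.05).

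Ghr, the growth hormone receptor, had 7.62 and 7.47 in TgSREBP-1a and 8.61 and 8.44 in TgSREBP-2, against 8.78 and 8.52 in high-protein wild type. It had 8.85 and 9.12 in Scap-/-, against 9.05 and 9.12 in chow-fed wild type. Ghr fell by 1.11 ± 0.12 in TgSREBP-1a (adjusted p = 0.000115), and by 0.61 ± 0.13 on its dimmer probe set. It stood at -0.13 ± 0.12 in TgSREBP-2 (adjusted p = 0.642) and at -0.10 ± 0.12 in Scap-/- (adjusted p = 0.983), and TgSREBP-1a was 0.98 ± 0.12 lower than TgSREBP-2 (log2 difference -0.98, adjusted p = 0.000371).

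Below the receptor, Stat5b was at -0.42 ± 0.10 in TgSREBP-1a (adjusted p = 0.016), short of 1.5-fold, and at -0.32 ± 0.10 in TgSREBP-2 (adjusted p = 0.117). Socs2, a feedback inhibitor of the receptor that STAT5 induces, was lower in all 3 altered livers. It had 6.38 and 6.0 in TgSREBP-1a and 6.55 and 6.50 in TgSREBP-2, against 7.25 and 7.05 in wild type, and 5.89 and 5.68 in Scap-/-, against 6.50 and 6.52 in chow-fed wild type. Socs2 fell by 0.96 ± 0.13 in TgSREBP-1a and 0.62 ± 0.13 in TgSREBP-2 livers, and by 0.73 ± 0.13 in Scap-/- (adjusted p = 0.000432, 0.018 and 0.0109).

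The last 2 Socs2 calls were lost with any of several arrays left out, at differences mostly close to the full ones. In limma the TgSREBP-2 difference was -0.52 without wild type replicate 1, -0.64 without TgSREBP-2 replicate 1 and -0.60 without its replicate 2 (adjusted p = 0.116, 0.101 and 0.0769). It was -0.62 with an adjusted p = 0.0715 when only the high-protein arrays were fitted. The Scap-/- difference was -0.62 without Scap-/- replicate 2, and -0.74 and -0.71 without wild type replicate 1 or 2 (adjusted p = 0.136, 0.0986 and 0.119). Cish, another STAT5-induced inhibitor, was at -0.20 ± 0.10 in TgSREBP-1a and -0.13 ± 0.10 in TgSREBP-2 livers, stood at 0.11 ± 0.10 in Scap-/-, and was called in none.

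Among secreted outputs, Igfals, which encodes the subunit that stabilises circulating insulin-like growth factor complexes, had 7.81 and 7.69 in TgSREBP-1a and 9.0 and 8.85 in TgSREBP-2, against 9.03 and 8.79 in wild type. It fell by 1.16 ± 0.10 in TgSREBP-1a (adjusted p = 1.65e-05), but its dimmer probe set was at -0.03 ± 0.13. Igf1, the growth factor itself, had 10.37 and 10.29 in TgSREBP-1a, against 10.89 and 10.96 in wild type. Its fall of 0.59 ± 0.09 (adjusted p = 0.000989) just passed 1.5-fold, and it did not without wild type replicate 2 (-0.56) or TgSREBP-1a replicate 2 (-0.55), nor on its dimmer probe set (-0.32 ± 0.08). With median centring or quantile normalization the Igf1 fall was also short of 1.5-fold (-0.58 with each).

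The binding protein genes split. Igfbp1 rose by 1.40 ± 0.14 and Igfbp4 fell by 0.99 ± 0.13 in TgSREBP-1a, but the dimmer Igfbp1 probe set was at -0.35 ± 0.13 and the other Igfbp4 probe sets at -0.14 ± 0.08 and -0.25 ± 0.13. Of 15 measured liver transcription factors 3 fell in TgSREBP-1a, namely Cebpa (-0.77 ± 0.08), Bcl6 and the xenobiotic receptor Nr1i3 (-0.97 ± 0.08), and 0 rose (median -0.30 against -0.03). In TgSREBP-2 2 fell, Bcl6 and Foxa3, and the Foxa3 call was lost in limma without wild type replicate 1 or 2 or TgSREBP-2 replicate 2, at -0.57, -0.75 and -0.45 against -0.66 with all arrays (adjusted p = 0.149, 0.0599 and 0.137). It was also lost with only the high-protein arrays fitted (-0.66, adjusted p = 0.106). In Scap-/- Bcl6 fell.

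**Figure D4:**
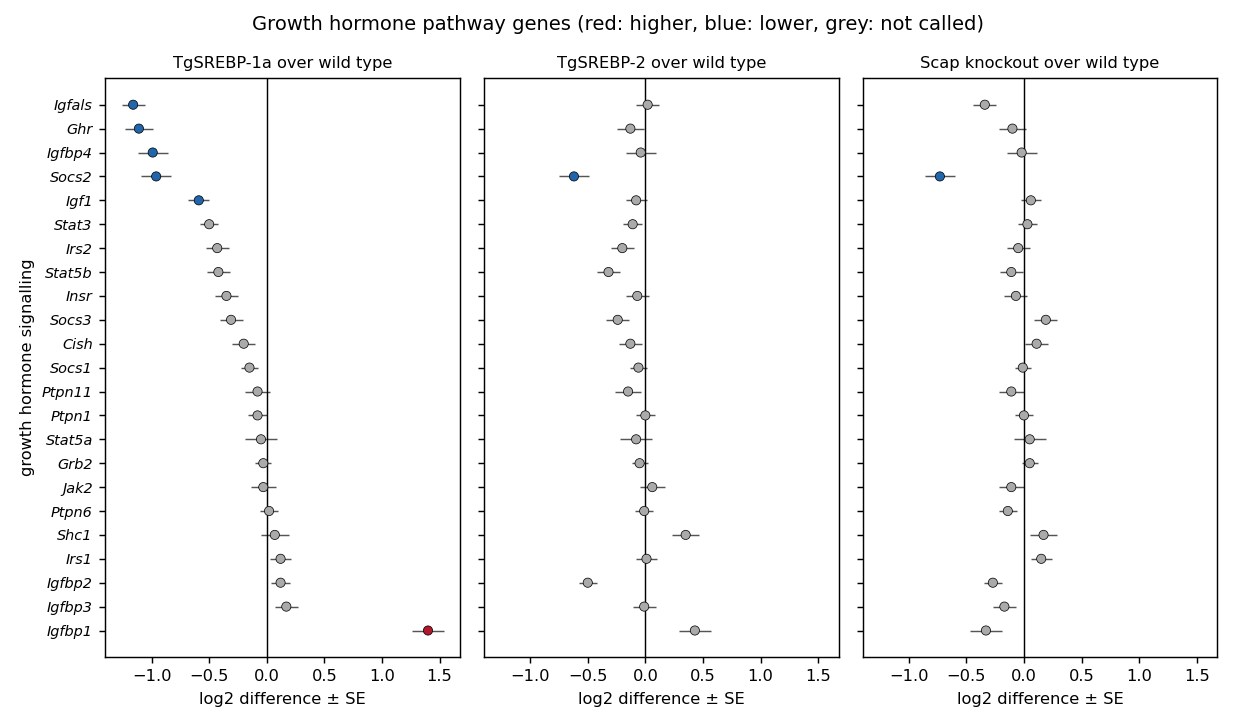
Log2 difference with its standard error (horizontal axis) for 23 genes of growth hormone signalling and its liver outputs in 3 comparisons, with red for called higher, blue for called lower and grey for not called. Values are those of the representative probe sets. In TgSREBP-1a the receptor gene Ghr (-1.11) and Igfals (-1.16) are among 5 called lower, and Socs2 is the gene called lower in all 3 panels.

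The likeness of other genes to each of the 3 was measured as Pearson's r of log2 signals over the 10 arrays, among 498 other genes whose pool means span at least 1 log2 unit. The 10 points are 5 pools, so r describes these pools only. Nearest to Hsd3b5 were Serpina12 (r = 0.992), the hydroxysteroid dehydrogenase gene Hsd17b2 (0.982), the heat shock protein gene Hspa4 (0.978), Phlda1 (0.973) and the peroxisome biogenesis gene Pex6 (0.969). Serpina12 had means of 5.51 in TgSREBP-1a and 5.87 in TgSREBP-2, against 7.33 in high-protein wild type, and 8.94 in Scap-/-, against 9.36 in chow-fed wild type.

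Nearest to Mup3 were Pigr, which encodes the receptor that moves immunoglobulin A into bile (r = 0.999), Cyp7b1 (0.999), Egfr (0.997), Mup5 (0.996) and the carboxylesterase Ces1c (0.994). Pigr averaged 9.03 in TgSREBP-1a and 11.66 in TgSREBP-2, against 11.99 in high-protein wild type. Nearest to Car3 were the complement regulator gene C4bp (0.986), the carboxylesterase Ces3a (0.983), the oxidoreductase Ero1b (0.981), Serpina1e (0.978) and the pseudogene Mug-ps1 (0.977). Among the 3 genes themselves, r was 0.958 between Mup3 and Car3, 0.856 between Hsd3b5 and Car3, and 0.741 between Hsd3b5 and Mup3. Mup3 stood at place 135 among the genes most like Hsd3b5, and Car3 at place 24 among those most like Mup3.

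Markers of other tissues differed between these pools and are given because Car3 is also a muscle and fat gene. Of 11 measured skeletal muscle markers 4 were lower in TgSREBP-1a (Acta1, Myh1, Tnnt3 and Myl1) and the same 4 were higher in Scap-/-. In TgSREBP-2 limma called 0 of the 11, and 2 had an unadjusted p under 0.05. In TgSREBP-1a the Myh1 call (-0.83) was lost in limma without wild type replicate 1 or TgSREBP-1a replicate 1, at -0.61 and -0.75 (adjusted p = 0.123 and 0.0868). Myl1 there was short of 1.5-fold without wild type replicate 2 (-0.57) or TgSREBP-1a replicate 1 (-0.51). The Tnnt3 call in Scap-/- (0.83) was lost without Scap-/- replicate 2 or wild type replicate 1 or 2, at 0.72, 0.86 and 0.80 (adjusted p = 0.141, 0.0975 and 0.132). Acta1, skeletal muscle actin, had 5.59 and 5.82 in TgSREBP-1a and 8.63 and 8.43 in TgSREBP-2, against 9.04 and 8.60 in wild type. It had 8.80 and 8.99 in Scap-/-, against 6.17 and 6.24 in chow-fed wild type.

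The muscle markers' summed linear signal was 859 to 921 in TgSREBP-1a and 1390 to 1420 in TgSREBP-2, against 1400 to 1560 in wild type, and 1480 to 1490 in Scap-/-, against 849 to 867 in chow-fed wild type. Sums of this kind, here and below, are set mostly by the brightest markers. The median log2 difference of the 11 muscle markers was -0.26 in TgSREBP-1a, beside -0.03 over all genes. In Scap-/- it was 0.31, beside 0.00. The part of muscle RNA in the Car3 values was not tested. No marker is at 0 on this log scale, so absence cannot be read from it. Of 6 measured adipocyte markers limma called 0 in the TgSREBP-1a, TgSREBP-2 and Scap-/- pools, where 5, 2 and 1 had an unadjusted p under 0.05, and the sums were 1060 to 1080 in TgSREBP-1a and 1090 to 1180 in TgSREBP-2, against 1190 to 1240 in wild type, and 986 to 988 in Scap-/-, against 959 to 962 in chow-fed wild type.

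All 6 measured exocrine pancreas markers were lower in both TgSREBP-1a and Scap-/-. Their sums were 1090 to 1100 in TgSREBP-1a and 19800 to 20200 in TgSREBP-2, against 14500 to 14600 in wild type, and 1590 to 1650 in Scap-/-, against 7150 to 7230 in chow-fed wild type. The trypsinogen gene Prss2 was called lower in both, at -5.56 ± 0.07 in TgSREBP-1a and -4.21 ± 0.07 in Scap-/-. The part of pancreas RNA in the values of Hsd3b5, Mup3 and Car3 was not tested. Of 10 macrophage markers 5 were higher in TgSREBP-1a and 3 in TgSREBP-2 livers, with sums of 4440 to 4660 and 3560 to 3830 in the transgenic pools, against 2760 to 2770 in high-protein wild type. The sums were 3930 to 4000 in Scap-/-, against 4030 to 4290 in chow-fed wild type. High-protein wild type was itself below chow-fed wild type at all 10 markers (median log2 difference -0.56, beside 0.01 over all genes). In Scap-/- limma called 0 of the 10, and 2 had an unadjusted p under 0.05. In TgSREBP-1a the Lyz2 call (0.74) was short of 1.5-fold without TgSREBP-1a replicate 1 (0.54) and with the mean of its probe sets (0.46). In TgSREBP-2 the C1qb call (0.68) was short of it without TgSREBP-2 replicate 1 (0.57) and with the mean of its probe sets (0.45). The Lyz2 call there (0.66) was lost without TgSREBP-2 replicate 1 (0.54), without wild type replicate 2 (0.58), with only the high-protein arrays (0.66) and with the mean of its probe sets (0.34), at limma adjusted p = 0.167, 0.0996, 0.0791 and 0.133. The part of macrophage RNA in the results above was not tested. Of 2 red cell markers 1 was higher and 1 lower in TgSREBP-1a, and of 4 endothelial and 3 lymphocyte markers 2 and 1 were higher, while 0 of 4 stellate markers were called there in limma and 3 had an unadjusted p under 0.05. Of these calls, Alas2 was short of 1.5-fold without wild type replicate 2 (-0.58) or TgSREBP-1a replicate 1 (-0.52), Cdh5 without TgSREBP-1a replicate 1 (0.58) and Ighm with the mean of its probe sets (0.19).

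The liver label was checked with 8 measured hepatocyte markers. Albumin, Alb, averaged 13.85 in TgSREBP-1a, against 13.57 in high-protein wild type. The markers' summed signal was 47600 to 51600 in TgSREBP-1a and 49900 to 51600 in TgSREBP-2, against 50500 to 52300 in wild type, and 49200 to 51500 in Scap-/-, against 51200 on both arrays of chow-fed wild type. Such a sum is set mostly by the brightest markers. The median difference of the list in TgSREBP-1a was -0.23, beside -0.03 over all genes, with 5 of the 8 markers below 0 and 6 at an unadjusted p under 0.05 in limma. Within this list transthyretin, Ttr, fell by 1.37 ± 0.10 and the tryptophan-degrading Tdo2 by 0.72 ± 0.09 in TgSREBP-1a, while the tyrosine aminotransferase Tat rose by 0.77 ± 0.11.

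**Figure D5:**
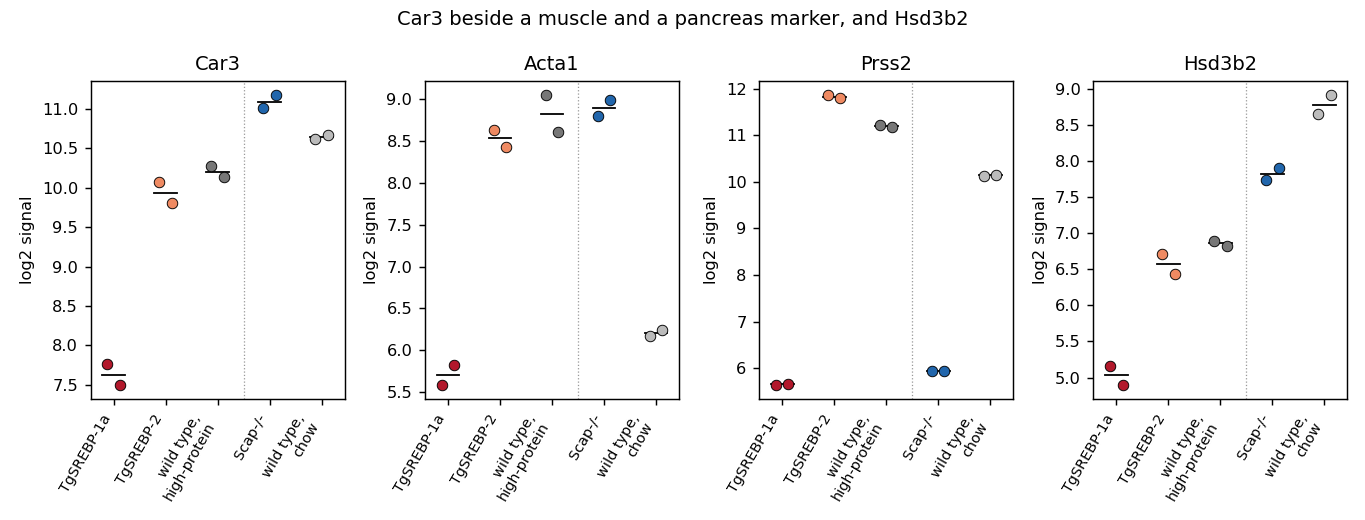
Log2 signal (vertical axis) on each array, with bars for the mean of 2 arrays, for Car3, the muscle marker Acta1, the pancreas marker Prss2 and the Hsd3b5 neighbour Hsd3b2. Acta1 is lowest in TgSREBP-1a (5.59 and 5.82) and chow-fed wild type (6.17 and 6.24), and Car3 is lowest in TgSREBP-1a (7.76 and 7.50).

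The mouse SREBP gene Srebf1 was read as the gene closest to the manipulation. It had 10.57 and 10.52 in TgSREBP-1a and 10.01 and 10.04 in TgSREBP-2, against 8.68 and 8.70 in wild type, and 8.59 and 8.60 in Scap-/-, against 10.07 and 10.14 in chow-fed wild type. Whether its probes read the human transgenes was not tested, so it does not check the labels, and a probe set for Scap was not analysed here.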

How the data were processed

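RNA of 5 mice per group was pooled in equal parts and each pool hybridised to 2 arrays, per the labels' protocols. The authors deposited 1 table of log2 signals for 12488 probe sets, made with RMA per the submitters' processing notes (no version is stated), though Microarray Suite 5.0 appears in the design text. Array medians ran from 6.37 to 6.40. The 2 arrays of each pool limit only the precision of that pool's values. With 1 pool per group no spread between mice was measured.

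Gene symbols came from the platform annotation and were brought up to date with RefSeq, which held 10817 of them. Of all probe sets 66 were controls, 10833 had 1 symbol, 396 several and 1193 none. Each of 8251 genes was represented by its brightest probe set, and 2073 genes had a choice. All 10 arrays were fitted in limma 3.58.1 (R 4.3.3) with 1 coefficient per group and no block, with Benjamini-Hochberg adjustment over all genes in each of 6 contrasts. The script was tested on simulated data. The spread is shared over groups, although the 2 arrays of a pool differed by 1.5-fold at 151 genes for TgSREBP-1a, 55 for TgSREBP-2, 101 for high-protein wild type, 6 for Scap-/- and 0 for chow-fed wild type. Standard errors may therefore be too small in the transgenic set.

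The 3 genes, the 5 gene lists and 9 marker lists were chosen with earlier results of these data known. The rule for naming took the 3 genes, Ghr, Stat5b, Socs2, Cish, Igf1 and Srebf1. It added up to 8 called genes per list by largest difference over the 5 comparisons of groups. It also took the 5 genes most like each of the 3. Not all list genes it took are given with values here, and Lcn2, Fmo1, Car5a, Socs3 and Stat3 are among those left out. Others named were chosen after their values were seen. The alternatives tried were the replicate block, each array left out, a filter at a mean of 6, quantile normalization, median centring, a fit within each set of pools, a trended robust variance, and the mean of a gene's probe sets.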

Additional observations from a re-analysis of the deposited data

Results flagged for a closer look

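The TgSREBP-1a difference minus the Scap-/- difference stood out for all 3 genes, at -2.30 log2 for Hsd3b5, -2.54 for Mup3 and -3.02 for Car3. The genes were selected on differences in the transgenic livers, so these values and their calls are a description and no independent evidence. For Car3 the signs were opposite, -2.57 ± 0.12 in TgSREBP-1a and 0.45 ± 0.12 in Scap-/-, the second of which was not called. The sets differ in diet, age and injections as well as in gene, and these cannot be told apart.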

How the results depend on the processing

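The calls of Hsd3b5, Mup3 and Car3, and their signs, held in all 6 contrasts under every alternative run, and counts of called genes stayed within 1.5 times. Leaving out 1 array each time moved the TgSREBP-1a difference of Hsd3b5 between -2.93 and -2.45, of Mup3 between -2.64 and -2.51 and of Car3 between -2.70 and -2.44. Hsd3b5 in TgSREBP-2 ran from -1.98 to -1.50. The replicate numbers are not explained in the labels. Same-numbered arrays deviated together among the high-protein pools (r of deviations 0.60, 0.46 and 0.61) and at 0.30 in the chow set. With the replicate number as a block within each set, the TgSREBP-1a differences stayed -2.69, -2.57 and -2.57, TgSREBP-1a calls numbered 618 against 608 without it, and TgSREBP-2 calls 229 against 212. The block gave Car3 an adjusted p = 0.00273 in Scap-/-, still under 1.5-fold. With the dimmer Mup3 probe set, added after the data were seen, Mup3 was at -2.35 in TgSREBP-1a and -0.41 in TgSREBP-2. Genes called lower in TgSREBP-2 numbered 32, or 21 without replicate 2 of TgSREBP-2 and 48 without wild type replicate 2. The TgSREBP-1a over TgSREBP-2 calls, 243 lower and 185 higher, turned to 206 and 254 without TgSREBP-1a replicate 2 and to 194 and 217 without TgSREBP-2 replicate 1. Between the wild type pools 226 were lower and 146 higher with the block, against 358 and 106 without it. Small uncalled values changed sign as 1 array was left out, over ranges of -0.26 to 0.00 for Ghr and -0.16 to 0.00 for Igf1 in TgSREBP-2, -0.23 to 0.04 for Ghr in Scap-/-, and -0.21 to 0.05 for Cish and -0.24 to 0.03 for Stat5b between the transgenic pools. The cause was not tested.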

Other observations

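A probe set that the annotation assigns jointly to Hsd3b4, Gm4450 and Gm10681, which adjoin Hsd3b5 on chromosome 3, was left out of the comparisons. It had log2 signals of 4.38 and 4.49 in TgSREBP-1a and 4.67 and 4.75 in TgSREBP-2, against 4.69 on both arrays of high-protein wild type. It had 4.87 and 4.80 in Scap-/-, against 4.92 and 4.86 in chow-fed wild type.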
